A study of Mus musculus with 14 samples.

Results

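The 7 genes described here encode a receptor, a receptor subunit and the enzymes of glycation damage: Ager and Ddost on the receptor side, Glo1 and Hagh of the glyoxalase pathway, the fructosamine kinases Fn3k and Fn3krp, and Park7. They were chosen by name, for what their products do, out of 56941 genes in the table. The choice was made with earlier results of these data known, so shares of the 7 set beside all genes are descriptive. All 7 were among the 19145 genes that could be tested. Each was measured by bulk RNA-seq in the aortic valve leaflets of 14 mice. Every animal was a male C57BL/6J wild type mouse, 8 weeks old at the start, and every animal ate Breslow Western Diet, the controls included. There were 4 untreated controls (Ctrl), 2 mice given LY272015 alone (LY), 4 mice infused with angiotensin II (AngII) and 4 given both (AngII+LY). AngII, a vasoconstrictor peptide hormone, was delivered by osmotic pump over 28 days at 1000 ng/kg/min, and LY272015, which blocks the serotonin receptor HTR2B, was dosed at 3 mg/kg. The labels place the AngII and AngII+LY mice 48 hours after pump removal, whereas the study's methods describe removal in a subset, so the values may include time without infusion. LY272015 was given every other day according to the labels and on a slower schedule according to the design text. The treatment labels of 1 LY and 3 AngII+LY mice carry compound numbers that run on from LY272015, and these mice were grouped by their titles. The design text gives 4 mice in each group, and 2 LY libraries were analysed here.

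Sugars and reactive dicarbonyls such as methylglyoxal bind to proteins without an enzyme and end as advanced glycation end products (AGEs). Cells meet this damage at several points: the glyoxalases remove methylglyoxal before it reacts, the fructosamine kinases release early sugar adducts from lysines, and receptors bind the end products. AGEs and their receptor RAGE, the product of Ager, have been described in diseased aortic valves.

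The promoters of 6 of the 7 genes were matched in the RefSeq table for mouse build GRCm38.p6, as 7 windows of 250 bases before to 50 bases after a transcription start. These coordinates are in a build older than that of the counts and are used only to place the sequence. The windows for Park7 and Hagh are shown because both genes were among the 3 with the smallest p between AngII+LY and AngII mice, and the window for Ager because its counts were listed at 0 in most AngII libraries. All are written 5′ to 3′ on the strand of the gene, and capitals mark a GC box (GGGCGG, searched on both strands) or an antioxidant response element core (TGACNNNGC, both strands).
Park7, chr4:150909872-150910171, minus strand: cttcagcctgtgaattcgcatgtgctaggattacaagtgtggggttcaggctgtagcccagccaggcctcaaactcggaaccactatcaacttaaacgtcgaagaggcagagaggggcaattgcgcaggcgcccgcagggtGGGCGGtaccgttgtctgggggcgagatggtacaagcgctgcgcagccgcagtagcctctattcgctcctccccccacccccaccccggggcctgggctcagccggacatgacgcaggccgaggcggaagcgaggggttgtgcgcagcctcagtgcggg
Hagh, chr17:24850417-24850716, plus strand: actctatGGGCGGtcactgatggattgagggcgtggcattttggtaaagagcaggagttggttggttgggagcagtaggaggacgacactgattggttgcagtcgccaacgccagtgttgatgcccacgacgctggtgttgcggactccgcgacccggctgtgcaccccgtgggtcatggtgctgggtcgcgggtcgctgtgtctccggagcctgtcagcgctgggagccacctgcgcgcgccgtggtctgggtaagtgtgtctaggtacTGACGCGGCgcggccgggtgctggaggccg
Ager, chr17:34597600-34597899, plus strand: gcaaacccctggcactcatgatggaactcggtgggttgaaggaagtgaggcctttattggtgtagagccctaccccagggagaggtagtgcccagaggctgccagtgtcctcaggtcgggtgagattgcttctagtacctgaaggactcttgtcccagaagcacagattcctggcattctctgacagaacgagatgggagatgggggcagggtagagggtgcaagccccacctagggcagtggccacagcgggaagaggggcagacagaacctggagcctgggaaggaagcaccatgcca
The Park7 window had 22 CpG dinucleotides and 1 GC box. The Hagh window shown had 27 CpG dinucleotides, 1 GC box and 1 antioxidant response element core, and the other Hagh window, which overlaps it, had 2 GC boxes. The Ager window held neither motif and had 4 CpG dinucleotides. Of all 32851 promoters in the table, 35.7% held a GC box and 12.4% an antioxidant response element core. A TATA box (TATAAA, both strands) stood in 13.6% of all promoters and in 0 of the 7 windows. These are matches of letters and say nothing about whether a factor binds.

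Library totals ran from 20990655 counts in AngII 4 to 73128220 in AngII 2. Values below are counts scaled by TMM, a method that equalizes libraries on the genes they share, and are called normalized counts. The tests came from edgeR's quasi-likelihood method fitted to all 19145 genes, with Benjamini-Hochberg adjustment, and a call needed an adjusted p below 0.05 with a log2 fold change beyond 0.5 in either direction. edgeR called 0 genes in any of the 5 contrasts, 0.0% of those tested, and so 0 of the 7, although 266 to 4815 genes per contrast had an unadjusted p under 0.05. DESeq2 called 21 to 2648 genes per contrast, and it and limma called some of the 7, as given beside them. Mitochondrial genes took 4.0 to 7.52% of counts in Ctrl and 9.83 to 25.5% in AngII libraries, with AngII 3 and AngII 4 the highest of all, and whether this share has a part in the differences below was not tested. Markers of valve interstitial cells (9 of 9) and of endothelial cells (8 of 8) were detected in every library, and so were 12 of 12 cardiomyocyte markers. In bulk RNA, fewer cells of a type and less RNA per cell cannot be told apart.

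**Figure D1:**
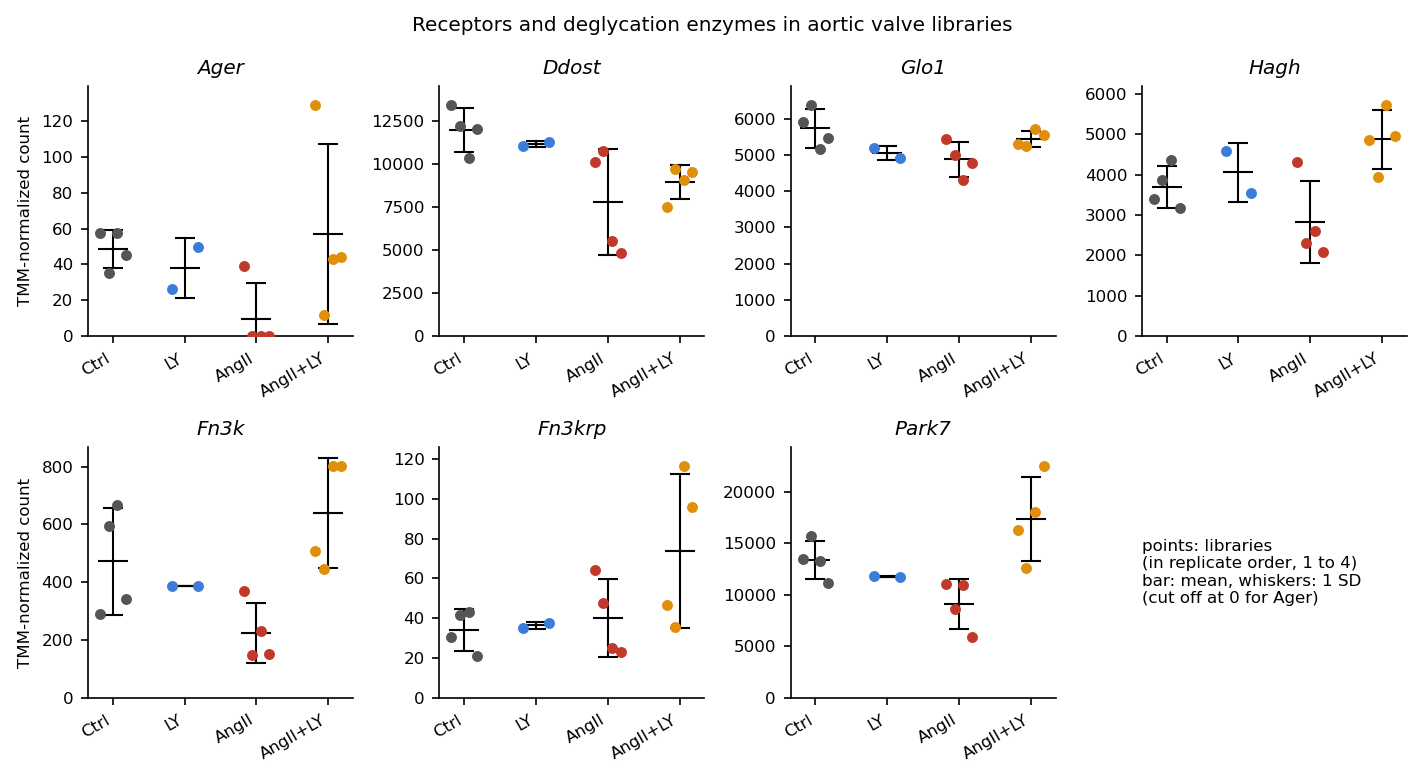
TMM-normalized counts of the 7 genes in each library by group, on linear axes from 0, with the mean and 1 SD. Each of the 4 AngII libraries lay below every AngII+LY library in Fn3k and Park7, and Ager was at 0 in 3 AngII libraries.

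The levels of the 7 genes spanned a wide range. Per kilobase of exon in Ctrl mice, Ddost was highest at 3640 ± 387 normalized counts (SD, n = 4), followed by Park7 at 1460 ± 203, Hagh at 783 ± 111, Glo1 at 447 ± 41.8 and Fn3k at 100 ± 39.2. Ager, at 22.6 ± 5.0, and Fn3krp, at 13.1 ± 4.06, were the lowest and overlapped between libraries. The order depended on the length used. Per kilobase of the canonical transcript, a choice made after seeing the data, Park7 stood first at 14700 normalized counts in Ctrl and Ddost second at 3920, and the other 5 genes kept their order. Over the 14 libraries the raw counts averaged 38.1 for Ager and 46.3 for Fn3krp, against 13100 for Park7, so the first pair had by far the largest counting error.

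Angiotensin II against control was the first comparison. Of the 7 genes 6 were lower in AngII mice and 1 was higher, with a median log2 fold change of -0.55 where the median over all genes tested was -0.06. At an unadjusted p under 0.05, Fn3k, Park7 and Ddost were lower, 3 of 7 where 11.7% of all genes tested were, and 0 of 7 were higher where 13.4% were. This set depended on the setting. With AngII 3 and AngII 4 left out, 0 of 7 were lower at that p, where 701 of 19219 genes were. After a correction for GC content, 2 of 7 were lower, Fn3k and Glo1, where 1159 of 19145 genes were. In Park7 no AngII library overlapped a Ctrl library, 1 of 7 genes where 7.56% of all genes were lower in this way. For 0 of 7 every AngII library was higher, where 7.46% of all genes were.

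Inhibition of HTR2B during the infusion was the second comparison, AngII+LY against AngII, and it uses the same AngII libraries. All 7 genes were higher in AngII+LY mice, with a median log2 fold change of 0.87 where that over all genes tested was -0.02. Hagh, Fn3k and Park7 had an unadjusted p under 0.05, 3 of 7 where 10.1% of all genes were higher, and 0 of 7 were lower where 12.4% were. Fn3k and Park7 did not overlap between the groups, 2 of 7 where 5.45% of all genes were higher without overlap. In the lower direction this held for 0 of 7, where 5.66% of all genes did so.

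**Figure D2:**
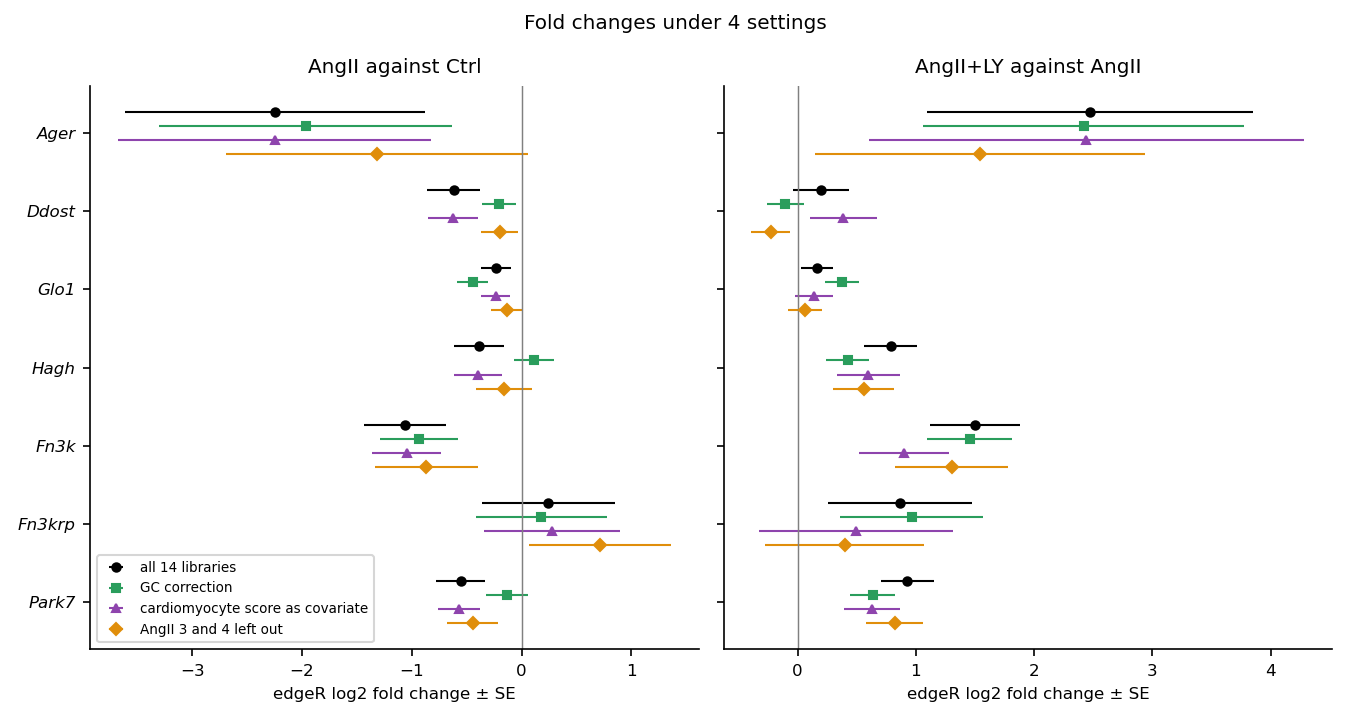
Log2 fold changes from edgeR with 1 SE for each gene, AngII against Ctrl and AngII+LY against AngII, from all 14 libraries, after a correction for GC content, with the cardiomyocyte score as a covariate and without AngII 3 and AngII 4. Ager, Glo1, Fn3k, Fn3krp and Park7 kept their direction in all 4 settings of both contrasts. Hagh crossed 0 in AngII against Ctrl and Ddost in AngII+LY against AngII. After the GC correction Park7 (-0.13, SE 0.19) and Hagh (0.11, SE 0.18) both lay within 1 SE of 0 in AngII against Ctrl.

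Ager encodes RAGE, the receptor that turns binding of AGEs, HMGB1 and S100 proteins into inflammatory signalling. It lies on chromosome 17 from 34816827 to 34819910 on the plus strand of GRCm39 (ENSMUSG00000015452), and no annotated gene shares its exons. Its normalized counts were 57.3, 35.0, 57.3 and 45.2 in the Ctrl libraries, 26.1 and 49.9 in LY, 39.3, 0.0, 0.0 and 0.0 in AngII, and 129.1, 11.8, 43.2 and 44.1 in AngII+LY libraries 1 to 4. AngII 1 was therefore the single AngII library with any Ager count, 38 raw counts, and the AngII+LY libraries spread over more than the range of Ctrl. A count of 3, taken as the floor that a count of 0 allows, equals 2.04 normalized counts in AngII 2, 3.61 in AngII 3 and 9.93 in AngII 4, all below the lowest Ctrl library. These floors cover counting error only. The log2 fold change was -2.24 (SE 1.37, edgeR adjusted p = 0.324) for AngII against Ctrl and 2.47 (SE 1.38, adjusted p = 0.308) for AngII+LY against AngII. Without AngII 1 the remaining AngII libraries were all at 0 and edgeR called Ager in both contrasts (adjusted p = 0.0254 and 0.035). With that library out, edgeR called 1725 and 844 of 19162 genes in these contrasts. Taking out the only AngII library with Ager counts widens both differences. No other single library left out gave an edgeR call of any of the 7 genes in these contrasts. Without AngII 3 and 4 the log2 fold changes were -1.32 (SE 1.38) and 1.54 (SE 1.395), with edgeR adjusted p of 0.794 and 0.645. DESeq2 gave neither Ager nor Fn3krp an adjusted p in these contrasts, and in limma with a pseudocount of 1 the adjusted p was 0.0582 and 0.0644.
Ager is a marker gene of lung alveolar type I cells, so lung markers were read beside it. The 8 lung markers were Sftpc, Sftpb, Sftpa1, Sftpd, Aqp5, Rtkn2, Scgb1a1 and Pdpn. They are not limited to type I cells, so their sum does not measure type I RNA. Together they took 0.00304% of counts in AngII 1, where Ager was counted, and 0.00862, 0.0676 and 0.00911% in AngII 2, 3 and 4, where it was not. Their share was 0.0127% in AngII+LY 1, the library highest in Ager, and ran from 0.0045 to 0.0138% in Ctrl libraries. The part of lung RNA in the Ager values was not tested.

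Ddost encodes a subunit of the oligosaccharyltransferase, which attaches sugar chains to new proteins in the endoplasmic reticulum, and its product is also known as the AGE receptor AGE-R1. The gene lies on chromosome 4 from 138032018 to 138040859 on the plus strand (ENSMUSG00000028757). Pink1 on the other strand shares 1514 bases of exon with it, 45.82% of the exon bases of Ddost, and because the strand setting of the counting is not given, the reads of these genes cannot be told apart there. Normalized counts were 13480, 12210, 10360 and 12030 in Ctrl, 11050 and 11300 in LY, 10160, 10790, 5543 and 4814 in AngII, and 7519, 9726, 9080 and 9552 in AngII+LY libraries. The AngII group was split, with AngII 1 and 2 near the Ctrl range and AngII 3 and 4, the libraries with the highest mitochondrial share, below every other library. The log2 fold change for AngII against Ctrl was -0.62 (SE 0.24, edgeR adjusted p = 0.133), and -0.20 (SE 0.17) without AngII 3 and 4. After the GC correction it was -0.20 (SE 0.16). Every AngII+LY library lay below every Ctrl library, with a log2 fold change of -0.42 (SE 0.24, edgeR adjusted p = 0.554). Between AngII+LY and AngII the log2 fold change was 0.20 (SE 0.24, edgeR adjusted p = 0.675), and it was -0.10 after the GC correction and -0.22 without AngII 3 and 4.

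The oligosaccharyltransferase subunits pointed in both directions. For this list and the pathway and marker lists below, the share of all genes at an unadjusted p under 0.05 is the background. In AngII against Ctrl 13.4% of all genes were higher and 11.7% lower. In AngII+LY against AngII 10.1% were higher and 12.4% lower. In AngII against Ctrl, 3 of 12 were lower at an unadjusted p under 0.05 (Ddost, Dad1 and Ost4) and 1 was higher (Stt3a), with a median log2 fold change of -0.11. Stt3a, a catalytic subunit, averaged 11790 ± 2920 normalized counts (SD, n = 4) with AngII against 7100 ± 1490 in Ctrl (0.73 on the log2 scale, SE 0.26, edgeR adjusted p = 0.114). Ost4, a small subunit, had a log2 fold change of -0.60 (SE 0.19) and Dad1 of -0.64 (SE 0.21), with edgeR adjusted p of 0.0858 and 0.098. In AngII+LY against AngII the catalytic subunits Stt3b (-0.80, SE 0.19, edgeR adjusted p = 0.0588) and Stt3a (-0.94, SE 0.26, adjusted p = 0.076) were lower, together with Magt1 and Tusc3. Dad1, Ost4 and Tmem258 were higher, Tmem258 by 0.54 on the log2 scale (SE 0.16, edgeR adjusted p = 0.0885). Ddost was not among these 7 genes with an unadjusted p under 0.05.

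**Figure D3:**
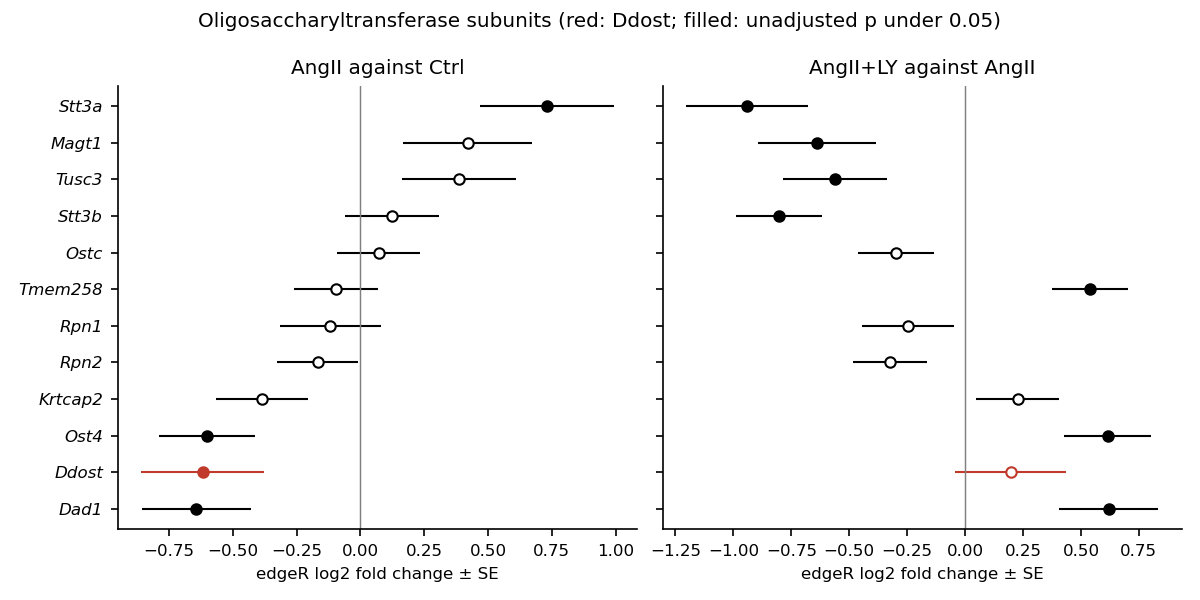
Log2 fold changes with 1 SE of 12 oligosaccharyltransferase subunits in AngII against Ctrl and AngII+LY against AngII, contrasts that share the AngII libraries. Ddost, in red, stood beside Dad1 and Ost4 at the low end in the first contrast, while the catalytic subunit Stt3a was at the high end.

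Other AGE receptors and receptor partners were mixed. Of the 13 genes on that list, Cd36 and Adam10 were higher and Ddost and Stab1 lower in AngII than in Ctrl at an unadjusted p under 0.05, with a median log2 fold change of -0.03. Adam10, a sheddase that releases the RAGE ectodomain, averaged 15360 ± 4690 normalized counts (SD, n = 4) with AngII, 6726 ± 2560 in Ctrl and 6749 ± 2730 in AngII+LY mice. Its log2 fold change was 1.19 (SE 0.32, edgeR adjusted p = 0.0619) for AngII against Ctrl and -1.19 (SE 0.32, adjusted p = 0.0713) for AngII+LY against AngII. Stab1, a scavenger receptor, had 2866 ± 1510 with AngII and 5652 ± 668 in Ctrl without overlap (log2 fold change -0.98, SE 0.34, edgeR adjusted p = 0.105). Lgals3 (0.73, SE 0.35) and Diaph1 (0.47, SE 0.24), a lectin that binds AGEs and the formin at the RAGE tail, followed Adam10 by p in AngII+LY against AngII, with edgeR adjusted p of 0.235 and 0.259.
Of 9 tested RAGE ligand genes, 1 was higher in AngII at an unadjusted p under 0.05, Hmgb1, with 9348 ± 1970 normalized counts (SD, n = 4) against 6293 ± 1400 in Ctrl (log2 fold change 0.57, SE 0.21, edgeR adjusted p = 0.125). The neutrophil gene S100a9 had 111.7 ± 76.5 with AngII and 234.5 ± 165 in Ctrl, with edgeR adjusted p = 0.223, and S100b had 1560 ± 884 and 2112 ± 1080, with adjusted p = 0.522. In AngII+LY against AngII the S100 genes went in different directions. S100a1, which is abundant in heart muscle, had 70560 ± 21600 with AngII+LY and 34470 ± 9220 with AngII alone, without overlap (log2 fold change 1.03, SE 0.28, edgeR adjusted p = 0.0716), while S100a8 had 112.8 ± 13.2 and 271.9 ± 163 (-1.26, SE 0.54, adjusted p = 0.189). Hmgb1 had 6924 ± 1530 in AngII+LY mice (log2 fold change -0.43, SE 0.21, edgeR adjusted p = 0.248).

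Glo1 encodes glyoxalase I, which turns the glutathione adduct of methylglyoxal into S-D-lactoylglutathione. It lies on chromosome 17 from 30803910 to 30845845 on the minus strand (ENSMUSG00000024026). Normalized counts were 5915, 6391, 5169 and 5458 in Ctrl, 5202 and 4929 in LY, 5439, 4995, 4300 and 4771 in AngII, and 5299, 5244, 5713 and 5552 in AngII+LY libraries. Glo1 was the steadiest of the 7 genes, with 1.49-fold between the highest and the lowest of the 14 libraries, and its groups overlapped in each contrast. The log2 fold change was -0.23 (SE 0.13, edgeR adjusted p = 0.296) for AngII against Ctrl and 0.16 (SE 0.14, adjusted p = 0.518) for AngII+LY against AngII. After the GC correction these were -0.44 (SE 0.14, unadjusted p = 0.00728 from edgeR) and 0.37 (SE 0.14, unadjusted p = 0.0193), with adjusted p of 0.208 and 0.228. At 45.67% GC, the exons of Glo1 were the lowest in GC of the 7 genes.

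Hagh encodes glyoxalase II, which hydrolyses S-D-lactoylglutathione to D-lactate and returns the glutathione. It lies on chromosome 17 from 25059117 to 25084125 on the plus strand (ENSMUSG00000024158), and 267 bases of its exons, 5.66%, are shared with Fahd1 and 725, 15.36%, with the long noncoding Gm41549, both on the other strand. Normalized counts were 3394, 3859, 4360 and 3174 in Ctrl, 4579 and 3549 in LY, 4306, 2314, 2604 and 2078 in AngII, and 4851, 3945, 5739 and 4963 in AngII+LY libraries. AngII 2, 3 and 4 lay below every Ctrl and every AngII+LY library, while AngII 1 lay within the range of Ctrl. For AngII+LY against AngII the fold was 1.72 (log2 fold change 0.79, SE 0.22, unadjusted p = 0.0036 and edgeR adjusted p = 0.08). DESeq2 called this difference (0.80, adjusted p = 0.0125), as it did 2062 of 19145 genes. Without AngII 1, the AngII library highest in Hagh, edgeR called it too (1.06, adjusted p = 0.035), with 844 of 19162 genes called. No other single library left out gave an edgeR call of Hagh. After the GC correction it was 0.42 (SE 0.18). For AngII against Ctrl the log2 fold change was -0.39 (SE 0.22, edgeR adjusted p = 0.298), -0.66 without AngII 1 (adjusted p = 0.0452, a call), and 0.11 after the GC correction. Without AngII 3 and 4 it was -0.16 (SE 0.25, edgeR adjusted p = 0.876). That exclusion gave 0.56 (SE 0.26, edgeR adjusted p = 0.337) for AngII+LY against AngII.

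The balance of both glyoxalases within a library does not depend on its scaling. The ratio below carries no GC correction, and GC content was 45.67% in the exons of Glo1 and 55.31% in those of Hagh. In AngII against Ctrl that correction moved the log2 fold change from -0.23 to -0.44 for Glo1 and from -0.39 to 0.11 for Hagh. The log2 ratio of Glo1 to Hagh per kilobase of exon was -0.64, -0.71, -1.20 and -0.66 in Ctrl, -1.26 and -0.97 in LY, -1.10, -0.33, -0.72 and -0.24 in AngII, and -1.31, -1.03, -1.45 and -1.28 in AngII+LY libraries. The mean was -0.80 ± 0.26 (SD, n = 4) in Ctrl, -0.60 ± 0.40 in AngII and -1.27 ± 0.17 in AngII+LY mice, so Hagh had the higher counts per kilobase in all 14 libraries. All groups overlapped.

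The list of the glyoxalase pathway and its homologs included Glo1, Hagh and Park7 themselves and Ldhd, the D-lactate dehydrogenase. Of its 9 tested genes, 5 were lower in AngII than in Ctrl at an unadjusted p under 0.05 (Haghl, Ldhd, Park7, Gatd1 and Pnkd) and 0 were higher, with a median log2 fold change of -0.55. In AngII+LY against AngII 4 were higher (Hagh, Haghl, Park7 and Pnkd) and 0 were lower, with a median of 0.61. Haghl, a homolog of glyoxalase II, averaged 760.2 ± 211 normalized counts (SD, n = 4) with AngII and 1345 ± 411 in Ctrl mice (log2 fold change -0.82, SE 0.25, edgeR adjusted p = 0.0826). Gatd1, which like Park7 belongs to the DJ-1/PfpI superfamily, had 656.0 ± 325 and 1202 ± 215 (-0.87, SE 0.29, edgeR adjusted p = 0.1). Pnkd, whose product has a glyoxalase II-like domain, had 4814 ± 1180 with AngII+LY and 2463 ± 872 with AngII alone, without overlap (0.96, SE 0.26, edgeR adjusted p = 0.0716).

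**Figure D4:**
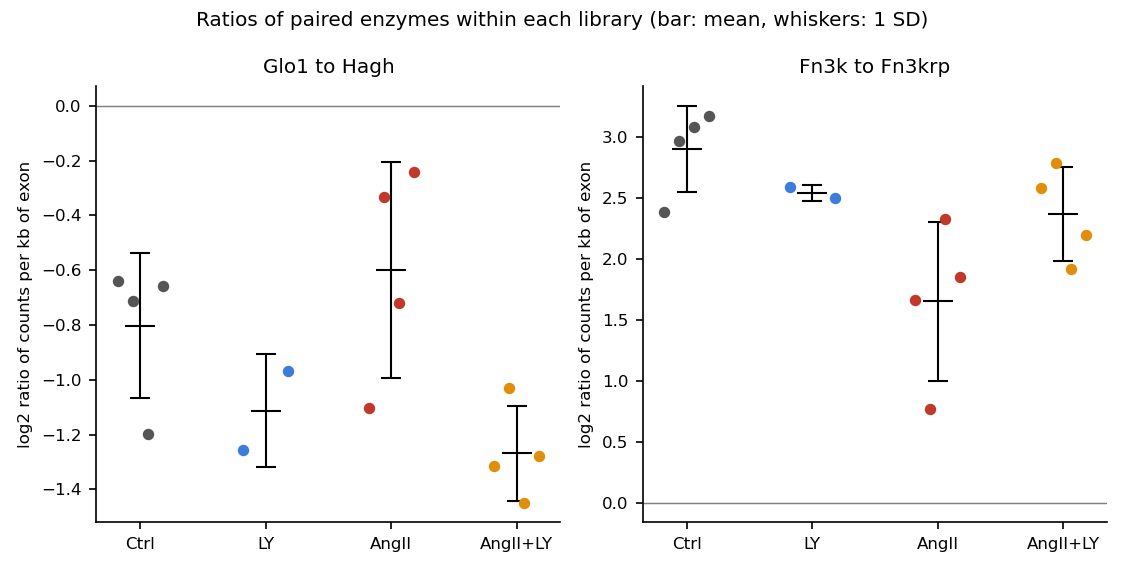
Log2 ratios of counts per kilobase of exon within each library, Glo1 to Hagh and Fn3k to Fn3krp, with the mean and 1 SD of each group. All 4 AngII libraries lay below all 4 Ctrl libraries in the ratio of Fn3k to Fn3krp. The nearest were AngII 3 at 2.33 and Ctrl 1 at 2.38, on few Fn3krp counts.

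Fn3k encodes fructosamine 3-kinase, which phosphorylates sugar adducts on lysines so that they detach. It lies on chromosome 11 from 121325662 to 121341317 on the plus strand (ENSMUSG00000025175), 3543 bases from its paralog Fn3krp, and no annotated gene shares its exons. Normalized counts were 288.9, 594.0, 665.6 and 341.6 in Ctrl, 385.9 and 386.7 in LY, 370.1, 147.8, 230.7 and 152.2 in AngII, and 508.0, 445.1, 800.5 and 801.7 in AngII+LY libraries. Every AngII+LY library exceeded every AngII library, and AngII 2, 3 and 4 lay below every Ctrl library. Between AngII+LY and AngII alone Fn3k differed 2.83-fold, higher with LY272015, at a log2 fold change of 1.50 (SE 0.38, unadjusted p = 0.00137 and edgeR adjusted p = 0.0627). DESeq2 (adjusted p = 0.00354) and limma (adjusted p = 0.0488) called it. Over all 19145 genes DESeq2 called 2062 in that contrast and limma 336. Against Ctrl, Fn3k was 2.09-fold lower with AngII, at a log2 fold change of -1.06 (SE 0.37, unadjusted p = 0.0128 and edgeR adjusted p = 0.108), and DESeq2 called that difference (adjusted p = 0.0437). DESeq2 called 2648 of 19145 genes in that contrast. Without AngII 1, the AngII library nearest to Ctrl, edgeR called both, at 1.85 (adjusted p = 0.0351) and -1.41 (adjusted p = 0.0389). With that library out, 844 and 1725 of 19162 genes were called in these contrasts. Leaving out the AngII library nearest to Ctrl widens both differences, and no other single library left out gave an edgeR call of Fn3k. Without AngII 3 and 4 the values were 1.30 (SE 0.48) and -0.87 (SE 0.47), with edgeR adjusted p of 0.257 and 0.618. After the GC correction the log2 fold changes were 1.45 (SE 0.36) and -0.94 (SE 0.35).

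Fn3krp encodes the fructosamine 3-kinase related protein, which acts on adducts of other sugars such as ribulosamines. It lies on chromosome 11 from 121312215 to 121322118 on the plus strand (ENSMUSG00000039253). Normalized counts were 30.4, 41.6, 43.2 and 20.8 in Ctrl, 35.3 and 37.6 in LY, 64.1, 47.7, 25.2 and 23.2 in AngII, and 46.7, 35.5, 116.6 and 95.8 in AngII+LY libraries. AngII+LY 3 and 4 stood above the other 12 libraries, and no contrast separated the groups. The log2 fold change was 0.25 (SE 0.60, edgeR adjusted p = 0.838) for AngII against Ctrl, 0.87 (SE 0.61, adjusted p = 0.426) for AngII+LY against AngII and 1.11 (SE 0.61, adjusted p = 0.537) for AngII+LY against Ctrl.
Set against each other, the log2 ratio of Fn3k to Fn3krp per kilobase of exon was 2.38, 2.97, 3.08 and 3.17 in Ctrl and 1.66, 0.77, 2.33 and 1.85 in AngII libraries. It was 2.58 and 2.49 in LY and 2.58, 2.78, 1.91 and 2.20 in AngII+LY libraries. The mean was 2.90 ± 0.35 (SD, n = 4) in Ctrl, 1.65 ± 0.65 in AngII and 2.37 ± 0.39 in AngII+LY mice. The balance of the kinase pair did not overlap between AngII and Ctrl, but AngII 3 (2.33) lay close to Ctrl 1 (2.38). Fn3krp had 21 raw counts in AngII 3, 35 in Ctrl 1 and as few as 7 in AngII 4. Counting error could therefore close that gap, and the ratio was given no test.

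The list of fructosamine repair and the fructose route held 6 genes. Fn3k, Akr1b1 and Khk were lower in AngII than in Ctrl at an unadjusted p under 0.05, with a list median of -0.45, and Fn3k and Akr1b1 were higher in AngII+LY than in AngII, with a list median of 0.71. Akr1b1, the aldose reductase that makes sorbitol from glucose, had 8787 ± 1130 normalized counts (SD, n = 4) in Ctrl, 5337 ± 1210 in AngII and 8911 ± 1790 in AngII+LY mice, and AngII overlapped neither. Its log2 fold changes were -0.72 (SE 0.20, edgeR adjusted p = 0.0672) and 0.74 (SE 0.20, adjusted p = 0.0719). Khk, ketohexokinase, had 589.6 ± 303 with AngII and 1077 ± 165 in Ctrl (-0.86, SE 0.38, edgeR adjusted p = 0.175). Mdp1, a phosphatase that acts on sugar phosphates bound to protein, had 3767 ± 865 with AngII+LY and 2902 ± 734 with AngII alone (0.38, SE 0.21, edgeR adjusted p = 0.299).

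Park7 encodes DJ-1, a redox-sensitive protein for which glyoxalase and deglycase activities have been described, and debated. It lies on chromosome 4 from 150981579 to 150998903 on the minus strand (ENSMUSG00000028964). Normalized counts were 13430, 15710, 13230 and 11170 in Ctrl, 11800 and 11690 in LY, 11060, 8574, 10940 and 5890 in AngII, and 16320, 12600, 18000 and 22480 in AngII+LY libraries. The 4 AngII libraries were the lowest of all 14, although Ctrl 4 exceeded AngII 1 by little. With LY272015 added to AngII, Park7 was 1.90-fold higher, at a log2 fold change of 0.93 (SE 0.23, unadjusted p = 0.00106 and edgeR adjusted p = 0.0592). DESeq2 (adjusted p = 0.00225) and limma (adjusted p = 0.0485) called it, and edgeR did without AngII 1 (1.03, adjusted p = 0.0429). In that contrast DESeq2 called 2062 and limma 336 of 19145 genes, and edgeR without AngII 1 called 844 of 19162. No other single library left out gave an edgeR call of Park7. Against Ctrl, AngII mice were 1.47-fold lower, with a log2 fold change of -0.55 (SE 0.22, unadjusted p = 0.0272 and edgeR adjusted p = 0.146). After the GC correction the first difference was 0.64 (SE 0.19) and the second -0.13 (SE 0.19). For AngII+LY against Ctrl the log2 fold change was 0.37 (SE 0.22, edgeR adjusted p = 0.586).

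Neighbouring routes of dicarbonyl handling were counted in the same way. Over all genes tested, 13.4% were higher and 11.7% lower in AngII against Ctrl at an unadjusted p under 0.05. In AngII+LY against AngII these shares were 10.1 and 12.4%. Of 12 tested aldehyde reductases and dehydrogenases, 5 stood lower (Akr1b1, Akr7a5, Dcxr, Aldh2 and Aldh7a1) and 1 higher (Aldh1a1) with AngII than without at an unadjusted p under 0.05, with a median log2 fold change of -0.40, and in AngII+LY against AngII 3 stood higher (Akr1b1, Akr7a5 and Dcxr) and 2 lower (Aldh1a1 and Aldh3a2), with a median of 0.30. Aldh7a1 averaged 1379 ± 452 normalized counts (SD, n = 4) with AngII and 2686 ± 654 in Ctrl mice without overlap (log2 fold change -0.96, SE 0.24, edgeR adjusted p = 0.0588). Dcxr had 571.1 ± 169 and 942.3 ± 189 (-0.72, SE 0.26, edgeR adjusted p = 0.114). Aldh1a1, a retinaldehyde dehydrogenase, had 7558 ± 2190 with AngII+LY and 27220 ± 2940 with AngII alone, the smallest p of all lists (-1.85, SE 0.25, edgeR adjusted p = 0.0568), and Akr7a5, an aldehyde reductase, had 3061 ± 431 and 1753 ± 552 (0.80, SE 0.24, adjusted p = 0.0875).
The glutathione supply, on which the glyoxalases depend, showed 1 of 10 genes higher with AngII than without and 2 lower, with a median of -0.22. Keap1, the inhibitor of NRF2, averaged 2181 ± 397 normalized counts with AngII and 3473 ± 400 in Ctrl mice (-0.67, SE 0.19, edgeR adjusted p = 0.0681). Gclm, a subunit of glutamate-cysteine ligase, had 5807 ± 3480 and 3083 ± 572 (0.91, SE 0.33, edgeR adjusted p = 0.118), and G6pdx 1673 ± 49.2 and 2190 ± 459 (-0.39, SE 0.18, adjusted p = 0.197). With LY272015 added 2 of the 10 were higher and 0 lower, with a median of -0.22. Keap1 had 3018 ± 612 in AngII+LY mice (0.47, SE 0.19, edgeR adjusted p = 0.161), and Gss, glutathione synthetase, had 1608 ± 187 against 1149 ± 180 (0.48, SE 0.19, adjusted p = 0.161). Ggt1 was at 0 in all 4 AngII+LY libraries and had 5.108 ± 10.2 in AngII.
Methylglyoxal forms from triose phosphates, and 9 enzymes around them were counted. In AngII 3 were lower than in Ctrl and 0 higher, with a median of -0.62. Pfkl, a phosphofructokinase, had 3157 ± 1280 and 6108 ± 1410 normalized counts (-0.95, SE 0.36, edgeR adjusted p = 0.125), Gapdh -0.75 (SE 0.32, adjusted p = 0.162) and Gpi1 -0.62 (SE 0.27, adjusted p = 0.171) on the log2 fold change scale. With LY272015 added 7 of 9 were higher than with AngII alone (Tpi1, Aldoa, Gapdh, Pfkl, Pfkm, Gpi1 and Hk2) and 0 lower, with a median of 1.01. Gapdh (1.23, SE 0.32, edgeR adjusted p = 0.0694), Tpi1 (1.04, SE 0.28, adjusted p = 0.0739) and Aldoa (1.22, SE 0.34, adjusted p = 0.0768) did not overlap between the groups. In the same contrast 8 of 12 cardiomyocyte markers were higher at an unadjusted p under 0.05, with a median log2 fold change of 1.24. The part of tissue makeup in these enzyme values was not tested.

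Cardiomyocyte markers, like Fn3k, Park7 and Hagh, were higher in AngII+LY than in AngII mice. Compared with AngII alone, 8 of 12 were higher and 0 lower at an unadjusted p under 0.05, and together they took 2.1 to 4.62% of counts in AngII+LY and 0.891 to 1.79% in AngII libraries, with none of the 12 at 0 in any group. Their score, the mean of log2(normalized count + 1), was 16.3 ± 0.691 (SD, n = 4) with AngII+LY and 15.2 ± 0.555 with AngII alone, a difference of 1.14 (exact 2-sided permutation test, p = 0.0571, adjusted p = 0.206 over 12 comparisons). Of 9 valve interstitial markers 6 were lower in AngII+LY and 0 higher, at 0.501 to 0.91% of counts against 1.21 to 1.82% in AngII libraries, and their part in these results was not tested. In AngII against Ctrl the cardiomyocyte score differed by 0.05 (exact permutation p = 0.971), whereas the adipocyte score was 9.14 ± 0.945 and 10.7 ± 0.421, a difference of -1.53 (exact permutation p = 0.0857, adjusted p = 0.206), and 6 of 6 smooth muscle and 4 of 7 macrophage markers were lower with AngII at an unadjusted p under 0.05. The smooth muscle markers took 0.935 and 0.133% of counts in Ctrl 1 and Ctrl 2 but 0.0236 and 0.024% in Ctrl 3 and Ctrl 4, within the 0.0166 to 0.033% of the AngII libraries. The part of these cell types was not tested.
Over the 14 libraries the correlation of Fn3k with the cardiomyocyte score was Pearson's r = 0.68 (permutation p = 0.0077, adjusted p = 0.077 over 14 relations) and Spearman's rho = 0.74 (permutation p = 0.004, adjusted p = 0.056). Its r was 0.65 without the libraries AngII+LY 4 and Ctrl 1, farthest from the median score, and 0.70 on deviations from the group means. Park7 had r = 0.66 (permutation p = 0.011, adjusted p = 0.077) and rho = 0.63 (permutation p = 0.019, adjusted p = 0.089), with 0.72 without those libraries and 0.58 within groups. For Hagh r was 0.57 (permutation p = 0.034, adjusted p = 0.12) and rho 0.66 (permutation p = 0.013, adjusted p = 0.089), with 0.59 and 0.37, and for Ddost r was -0.27 (permutation p = 0.35, adjusted p = 0.5) and rho -0.43 (permutation p = 0.12, adjusted p = 0.24). Fn3krp had an r of 0.58 (permutation p = 0.028, adjusted p = 0.12), close to that of Hagh, and a rho of 0.45 (permutation p = 0.11, adjusted p = 0.24), with 0.40 without those libraries and 0.32 within groups. Ager and Glo1 had r of 0.23 and 0.16 (permutation p = 0.43 and 0.59, adjusted p = 0.5 and 0.59). No relation passed the adjustment. With the score as a covariate in edgeR, the log2 fold change between AngII+LY and AngII was 0.90 for Fn3k (SE 0.38, adjusted p = 0.343), 0.63 for Park7 (SE 0.24, adjusted p = 0.322) and 0.60 for Hagh (SE 0.27, adjusted p = 0.355). The same covariate left AngII against Ctrl at -1.05 for Fn3k (SE 0.31, adjusted p = 0.0725) and -0.57 for Park7 (SE 0.19, adjusted p = 0.0923).

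**Figure D5:**
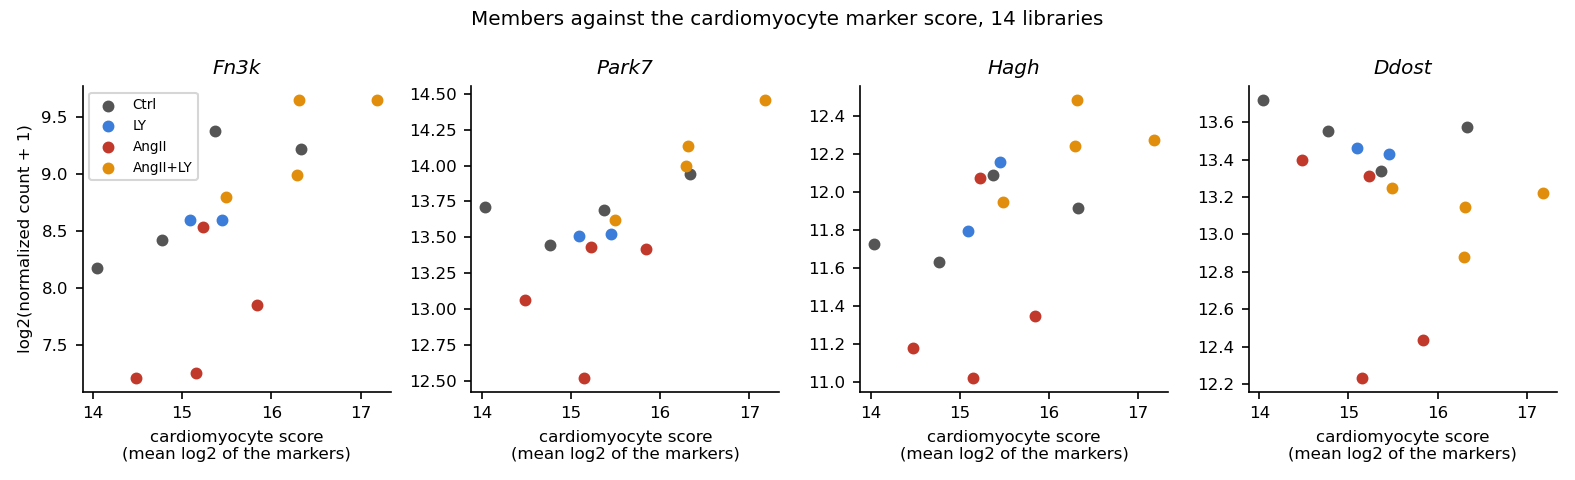
Log2(normalized count + 1) of Fn3k, Park7, Hagh and Ddost against the mean log2 level of 12 cardiomyocyte markers in 14 libraries, coloured by group. Fn3k, Park7 and Hagh tended to be higher in libraries with a higher score, and Ddost, with r = -0.27, did not.

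With AngII and LY272015 together, 0 of the 7 genes differed from Ctrl at an unadjusted p under 0.05 where 11% of all genes did, and 1 of 7, Ddost, did not overlap, where 8.16% of all genes did not in either direction. LY272015 alone gave no difference that could be detected with 2 mice: 0 of 7 genes had an unadjusted p under 0.05, where 1.39% of all genes did, and 0 of 7 lay apart from Ctrl, where 12.0% of all genes did. The largest log2 fold change among the 7 was that of Ager at -0.36 (SE 1.61, edgeR adjusted p = 1.0), and that of Fn3k was -0.29 (SE 0.46). The effect of LY272015 with AngII minus its effect without AngII was positive for all 7 genes and had an unadjusted p under 0.05 in 2 of them, where 13.3% of all genes did. It was 1.79 for Fn3k (SE 0.60, unadjusted p = 0.0101) and 1.12 for Park7 (SE 0.36, unadjusted p = 0.00791), with an edgeR adjusted p of 0.295 for each, and it rests on 2 LY libraries.

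Genes with the most similar pattern over the 14 libraries were sought among well-measured protein-coding genes, those averaging 100 counts or more. Pearson's r on log2(normalized count + 1) is given as a description, since the libraries share their groups and their tissue makeup. For Fn3k these were Tufm (r = 0.968), Prdx5 (0.967) and Mrps18a (0.967), of which Prdx5 is a peroxiredoxin and Tufm and Mrps18a serve mitochondrial translation. Park7 was closest to Zbed5 (0.98), Mrpl54 (0.977), a mitochondrial ribosomal protein gene, and Cav3 (0.976), the caveolin of muscle. Hagh was closest to Suds3 (0.948), Atp5mc2 (0.941) and Bnip1 (0.94), and Ddost to Slc35b2 (0.977), Adamts10 (0.972) and Flot2 (0.971). Glo1 had Ipo4 (0.913), Itfg2 (0.893) and Apc2 (0.891), Ager had Tuba1b (0.915), Psph (0.911) and Capn10 (0.905), and Fn3krp had Ier3 (0.833), Lipt1 (0.821) and Mrps27 (0.811). Among the 7 genes themselves the closest pair was Hagh and Fn3k (0.92), ahead of Fn3k with Park7 (0.89), and the least alike were Fn3krp and Ddost (0.17). The paralogs Fn3k and Fn3krp had 0.64, and the successive glyoxalases Glo1 and Hagh had 0.53.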

How the data were processed

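Per the labels and the study's methods, the authors checked reads with FastQC v0.12.1, trimmed them, used HISAT2 for alignment to GRCm39 and featureCounts for the gene counts. The deposited table is named as normalized, but its values are whole-number counts with unequal library totals, used here as raw counts. The annotation release, strand setting and DESeq2 version are not given in the sources used here. Positions and exon lengths came from GENCODE for GRCm39, promoters from RefSeq.
Genes averaging 10 counts or more across the 14 libraries entered the fit in edgeR 4.0.16 (R 4.3.3, TMM, estimateDisp and glmQLFit with its default legacy method, glmQLFTest) as 4 groups, with the study's cut-off. Whether the mice were processed in batches is not given, and the p-values measure the spread between these libraries. A normalized count is a count divided by the effective library size relative to its mean. Levels between genes were compared per kilobase of exon union. Composition scores were compared by exact permutation tests, which cannot go below p = 0.0286 between groups of 4, nor below 0.133 where a group has 2, and correlations by permutation tests.
The 7 genes, the pathway and marker lists and the tests were chosen with earlier results of these data known. Named are the 7 genes, from each pathway list the 3 genes with the smallest p in AngII against Ctrl and the 3 in AngII+LY against AngII, and the 3 genes most correlated with each of the 7. Other list genes are named where a count of them is given. Alternatives were DESeq2 1.42.0, limma 3.58.1 fitted to log2 normalized counts (pseudocount 1 or 10), DESeq2 size factors, no filter, a minimum mean count of 100, robust estimation, fits of 1 contrast's groups alone, a block for the replicate number, a loess GC correction of each library (span 0.3), both together, the cardiomyocyte score as a covariate, and each library left out. The newer quasi-likelihood of edgeR 4, leaving out AngII 3 and 4, and canonical transcript lengths were added after the data had been seen. The edgeR step was tested on simulated data.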

Additional observations from a re-analysis of the deposited data

Results flagged for a closer look

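In 36 groups of 4 libraries, covering the 7 genes, both ratios and the composition measures, the highest or lowest library was compared with the nearest other by Dixon's ratio, which chance exceeds in about 1 of 20 groups. It was exceeded in 2. Ager stood at 39.29 normalized counts in AngII 1 and at 0.0 in the other AngII libraries, a ratio of 1.0. The log2 ratio of Glo1 to Hagh was -1.196 in Ctrl 3, where the next lowest Ctrl library had -0.714, a ratio of 0.867.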

How the results depend on the processing

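edgeR called 0 genes in each contrast, at smallest adjusted p of 0.0573 (AngII against Ctrl) and 0.0568 (AngII+LY against AngII), so calls turn on the tool and on single libraries. In AngII against Ctrl 4815 genes had an unadjusted p under 0.05. DESeq2 called 2648, limma at a pseudocount of 10 called 240, the fit without a filter 123, the minimum mean count of 100 gave 975 and the newer quasi-likelihood 555. In AngII+LY against AngII 4315 genes had an unadjusted p under 0.05, and the calls were 2062 with DESeq2, 336 and 403 with limma at pseudocounts of 1 and 10, 1 without a filter, 514 at the minimum of 100 and 176 with the newer quasi-likelihood. For AngII+LY against Ctrl they were 343 with DESeq2, 4 and 6 with limma, 13 without a filter, 1 with the replicate block and GC correction and 61 without AngII 3 and 4. DESeq2 called 21 genes for LY against Ctrl and 210 for the difference between the effects of LY272015. Leaving out single libraries gave 0 to 1725 calls in AngII against Ctrl, 0 to 844 in AngII+LY against AngII and 0 to 3 in AngII+LY against Ctrl, with both highest values of the first pair without AngII 1.

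Of the 7 genes, calls appeared with DESeq2 for Fn3k in AngII against Ctrl (-1.03) and for Fn3k (1.51), Hagh (0.80) and Park7 (0.94) in AngII+LY against AngII. Over all 19145 genes DESeq2 called 2648 in AngII against Ctrl and 2062 in AngII+LY against AngII. In that contrast Fn3k was also called by limma (1.55 and 1.51) and at the minimum of 100 (1.51), and so was Park7 (0.94, 0.94 and 0.93). With single libraries left out, log2 fold changes in AngII against Ctrl ran from -8.61 to -1.82 for Ager, -0.66 to -0.27 for Hagh, -1.41 to -0.85 for Fn3k and -0.07 to 0.43 for Fn3krp. In AngII+LY against AngII they ran from 1.69 to 8.84 for Ager, 0.66 to 1.06 for Hagh, 1.34 to 1.85 for Fn3k and 0.77 to 1.08 for Park7. The calls among them came without AngII 1, where the Ager values rest on groups at 0 and are no estimate of size. Directions turned for uncalled values: Ager in AngII+LY against Ctrl (-0.19 and -0.09 in limma, -0.34 with the block, -0.23 with block and GC correction, and -0.56 to 0.59 with libraries left out), Ager in LY against Ctrl (0.10 with block and GC correction, -0.90 to 0.04), Hagh in LY against Ctrl (-0.06 to 0.31), Fn3krp in LY against Ctrl (-0.08 to 0.24), Hagh in AngII against Ctrl (0.11 with GC correction, 0.08 with the block too), and Fn3k in AngII+LY against Ctrl (-0.15 with the cardiomyocyte covariate). They also turned for Ddost in AngII+LY against AngII (-0.10 with GC correction, -0.08 with the block too, -0.22 without AngII 3 and 4) and in the difference of effects (-0.09 and -0.12), and Ggt1, at 0 in every AngII+LY library, ran from -5.92 to 0.0 with libraries left out. The cause was not tested. With DESeq2 size factors the LY levels were 383 for Fn3k and 11600 for Park7.

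Whether replicate numbers pair the mice is not given. Over 18 same-numbered pairs r of the deviations from group means ran from -0.295 to 0.251, with 5 over 0.1. Deviations within such small groups are tied to each other, so these values cannot settle it. The replicate block gave 4431 and 3747 genes at an unadjusted p under 0.05 in the main contrasts and called 0 genes in each. The GC correction left 2653 in AngII against Ctrl. Low counts limit Ager and Fn3krp, and 2 mice limit LY.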
